A study of Mus musculus with 24 samples.

Results

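Transcripts of 39 sarcomere and Z-disc genes were followed across 4 genotypes of mouse heart. The 39 were the rows of the deposited count table whose gene symbol stands in a list of thick filament, thin filament, titin, M-band and Z-disc genes, out of 52724 gene rows in all. Fetal myosin and actin isoforms and fast skeletal contractile isoforms were not in the list, while slow skeletal troponin I (Tnni1) and calsarcin-2 (Myoz1) were. All 39 had a row, and all 39 were among the 16018 genes that passed the filter on low counts. By role they comprised 4 thick filament genes, 7 troponin and tropomyosin genes, 5 genes of thin filament length and capping, 5 titin and M-band genes, 11 Z-disc genes, and 7 genes of desmin, Xin, LIM-domain and stress proteins.

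The study concerned Fkbp1a, which encodes the immunophilin FKBP12, a small protein that binds FK506 and associates with ryanodine receptors. RNA was taken from whole hearts of mice with floxed Fkbp1a and no Cre (FKl/l), of floxed mice with Cre under the muscle creatine kinase promoter (FKl/l MCK+), of floxed mice with Cre under the α-myosin heavy chain promoter (FKl/l MHC+), and of mice labelled as carrying this second Cre alone (MHC CRE Only). Per the series' design text, Cre expression begins at embryonic day 9 with the MHC promoter and at day 13 with the MCK promoter, and its level also differs between them. Both promoters are active in muscle cells and not in the heart's other cell types, and the labels give no age, sex or strain. The MHC CRE Only group carries the Cre transgene without a floxed allele, as its label reads. There were 6 libraries per genotype, 3 per batch over 2 batches, and FKl/l 1-3 stands for number 3 of batch 1 in FKl/l. The labels do not state whether the 6 are different animals. The p-values therefore reflect only how far these libraries spread, which may be technical.

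The sarcomere is the contractile unit of striated muscle. Myosin thick filaments pull on actin thin filaments, whose availability is set by calcium binding to the troponin complex and by the position of tropomyosin. Thin filaments of neighbouring sarcomeres are anchored in the Z-disc by alpha-actinin, thick filaments are crosslinked at the M-band by myomesins, and titin spans from one to the other. Desmin and filamin C link Z-discs to each other and to the cell membrane. Mutations in many of these genes cause human dilated or hypertrophic cardiomyopathy.

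Library totals ranged from 27799403 to 40412640 counts, of which mitochondrially encoded genes took 25.7 to 36.5%. The 39 genes together held 6.96 to 8.34% of the remaining counts. Levels are given as CPM, each gene's counts scaled to library size. Fkbp1a was 130 ± 10.1 CPM (SD, n = 6) in FKl/l, 65.1 ± 10.7 in FKl/l MCK+, 59.1 ± 12.6 in FKl/l MHC+ and 122 ± 20.6 in MHC CRE Only. Fkbp1a was at 81.8 CPM in the library labelled MHC CRE Only 1-3, which goes against its label. Summed lung markers were high in MHC CRE Only 2-3 (474 CPM) and FKl/l 1-1 (126 CPM), and summed atrial markers in FKl/l 1-3 (8787 CPM, with at most 4685 in the other 23 libraries). All 8 cardiomyocyte markers outside the list, among them Ryr2, Atp2a2 and Pln, had counts in every library, and none was called in any genotype comparison. Their sum was higher in batch 2 in FKl/l, FKl/l MCK+ and FKl/l MHC+, and its ranges overlapped between batches in MHC CRE Only. It ran from 11840.5 to 13317 CPM in batch 1 and from 17858 to 18317 in batch 2 of FKl/l. The ranges were 11326 to 14128 and 17434 to 18234 in FKl/l MCK+, and 12307 to 12843 and 15440 to 18454 in FKl/l MHC+. In MHC CRE Only they were 15125 to 19165 and 15334 to 16832. Its part in the results was not tested. In whole hearts, fewer cells of a type and less RNA per cell cannot be told apart.

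Levels between genes were compared as CPM per kilobase of merged annotated exons. The regulatory light chain Myl2 was highest, with a mean of 3320 over the 24 libraries. Cardiac troponin C (Tnnc1, 2851), cardiac troponin I (Tnni3, 2283), the essential light chain Myl3 (2176) and alpha-tropomyosin (Tpm1, 1380) followed. The heat shock protein Cryab (992), myosin-binding protein C (Mybpc3, 764), alpha-actinin (Actn2, 720), desmin (Des, 705), cardiac troponin T (Tnnt2, 643) and telethonin (Tcap, 579) formed the next tier. This order depends on the merged length, which can exceed that of any single transcript. Before division Tnnt2 averaged 4987 CPM over 7.75 kb of merged exons, and Tnni3 averaged 4709 CPM over 2.06 kb. Titin (Ttn) stood at 23.4 on this scale, beside a level of 2284 to 3375 CPM per library before division by length, and its merged exons include alternative exons that no single transcript holds. The lowest were myomesin 3 (Myom3, 0.322), slow troponin I (Tnni1, 0.252), calsarcin-2 (Myoz1, 0.150) and nebulin (Neb, 0.106). Myoz1 rested on 4 to 18 counts per library and Tnni1 on 15 to 57.

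**Figure D1:**
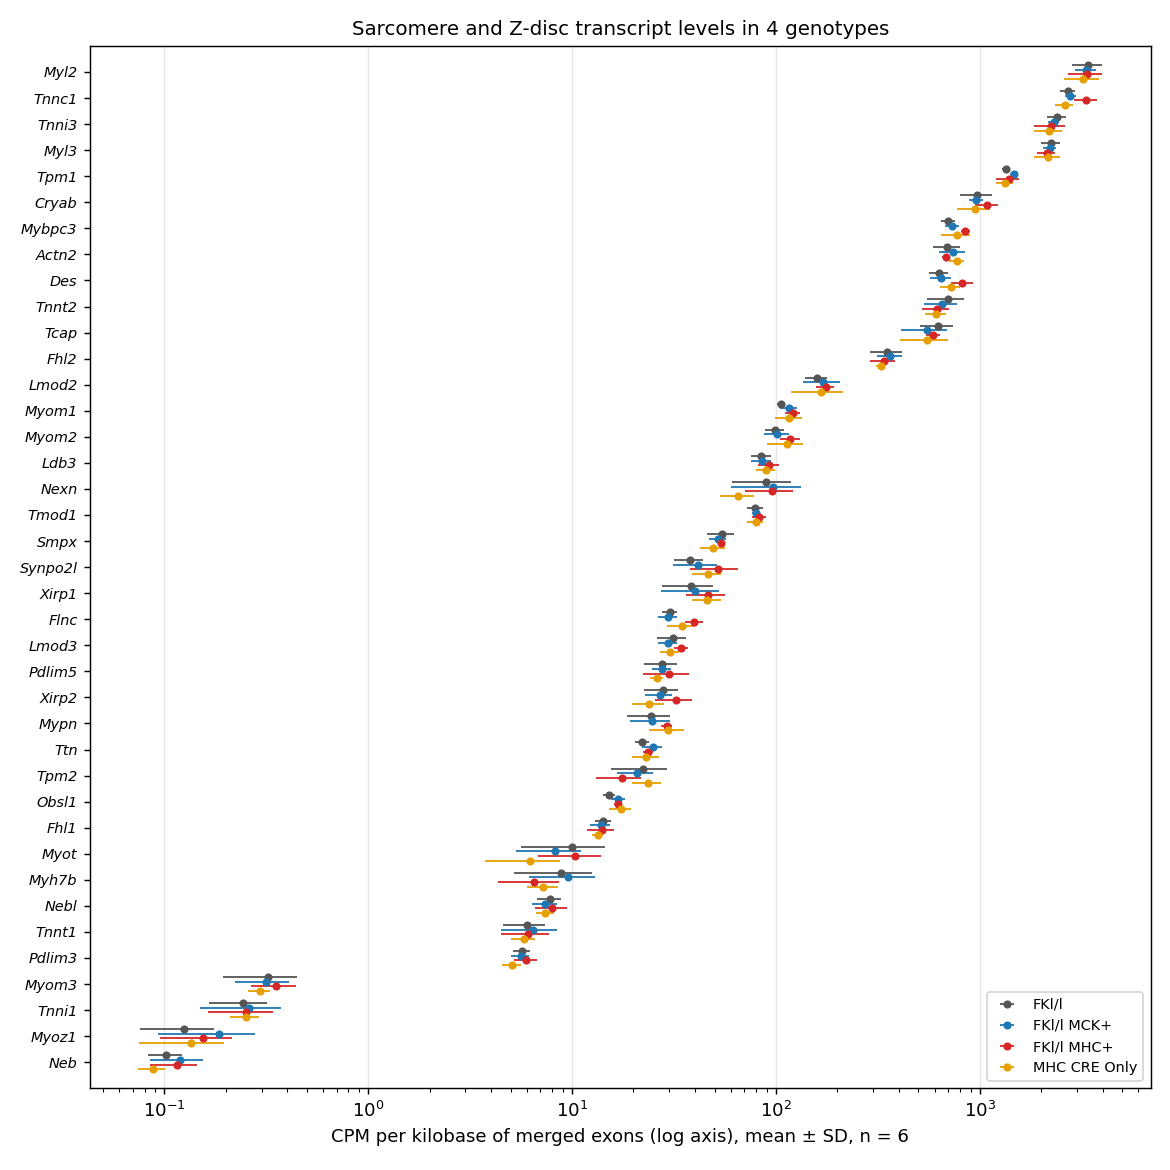
Level of each of the 39 genes in each genotype, as CPM per kilobase of merged exons on a log axis (points are means of 6 libraries, bars are SD). The genes span from 3320 (Myl2) to 0.106 (Neb), and the 4 genotypes lie close together for most genes.

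Deletion with the MHC driver was first set against floxed hearts without Cre. Filamin C (Flnc), a Z-disc and costamere crosslinker of actin, and desmin (Des), the intermediate filament that ties Z-discs together, rose. They were the 2 of 39 members called, where a call is an adjusted p under 0.05 over all genes tested, and 1.71% of all genes were called in this comparison. Over the 39 genes, 29 differences were positive and 10 negative with a median log2 difference of 0.10, beside a median of -0.0035 and 49.2% positive over all genes tested. At an unadjusted p under 0.05 there were 10 members, beside 14.7% of all genes.

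Flnc lies on the plus strand of chromosome 6 (29433256 to 29461883, GRCm38) with no annotated gene overlapping it. Its lowest, median and highest levels were 253, 278 and 313 CPM in FKl/l and 317, 370.4 and 429 CPM in FKl/l MHC+. All 6 libraries of the deletion were therefore above all 6 of FKl/l. The log2 fold change was 0.40 (SE 0.0925, edgeR adjusted p = 0.0169). It was 0.57 within batch 1 (adjusted p = 0.031) and 0.27 within batch 2 (adjusted p = 0.134). Leaving out 1 library ended the call for FKl/l MHC+ 1-3, FKl/l MHC+ 2-3 and FKl/l 1-2, with adjusted p up to 0.0639, and not for FKl/l 1-3 (0.37, adjusted p = 0.0482).

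Des lies on the plus strand of chromosome 1 (75360329 to 75368579), and the antisense gene Gm15179 overlaps it. The library kit keeps strand, but no source used here states the strand setting of the counting. Des ranged from 1891 to 2663 CPM in FKl/l, with a median of 2409, and from 2586 to 3513 CPM in FKl/l MHC+, with a median of 3175. Within each batch the 3 deletion libraries lay above the 3 of FKl/l, and how many of all genes show this was not counted. Over both batches FKl/l MHC+ 2-2 at 2586 CPM lay below FKl/l 1-1 at 2663 CPM. The log2 fold change was 0.37 (SE 0.0967, edgeR adjusted p = 0.0399). It was 0.56 within batch 1 and 0.22 within batch 2, and neither passed alone (adjusted p = 0.0674 and 0.195). Without FKl/l 1-3, the lowest library, it was 0.31 (adjusted p = 0.109), and the call was also lost without any of 9 other libraries, with adjusted p up to 0.119. These were FKl/l 1-2, 2-1 and 2-2, FKl/l MCK+ 2-1, FKl/l MHC+ 1-1, 1-2, 1-3 and 2-3, and MHC CRE Only 1-2.

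Other members had differences of similar size that did not pass. Synaptopodin 2-like (Synpo2l), an actin-binding Z-disc protein, ran from 134 to 210.0 CPM in FKl/l and from 183 to 356 CPM in FKl/l MHC+, a log2 difference of 0.44 (SE 0.119, adjusted p = 0.0583). Tnnc1 differed by 0.30 (SE 0.0841, adjusted p = 0.0591). Mybpc3, which sits on the thick filament and tunes crossbridge cycling, ran from 2585 to 3169 CPM in FKl/l and from 3274 to 3777 CPM in FKl/l MHC+, a difference of 0.28 (SE 0.0869, adjusted p = 0.0977). Flnc and Mybpc3 were the 2 members for which all 6 deletion libraries lay above all 6 FKl/l libraries, a pattern that 0.649% of all genes tested showed. Beta-tropomyosin (Tpm2) differed by -0.35 (SE 0.109, adjusted p = 0.0977).

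**Figure D2:**
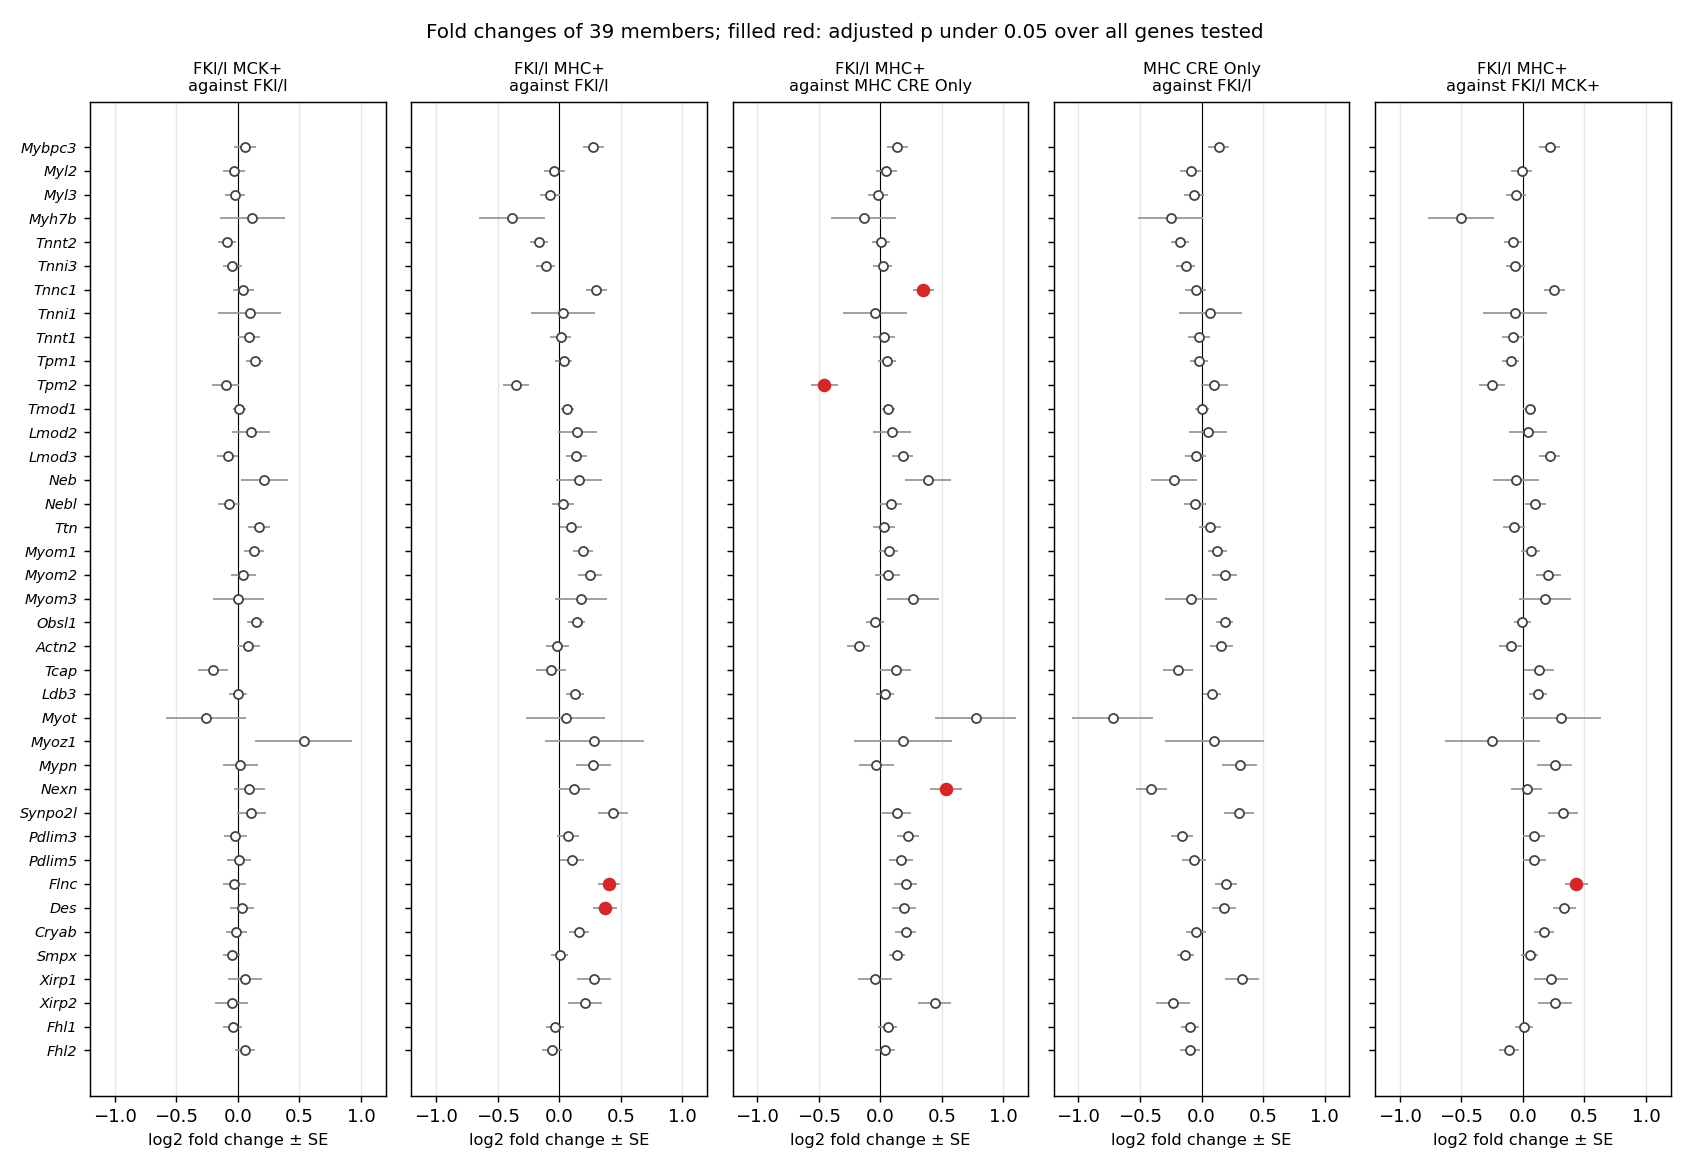
log2 fold change (points) with its SE (bars) for each of the 39 genes in the 5 genotype comparisons, ordered by role. Filled red points are the calls: Flnc and Des against FKl/l, Tnnc1, Nexn and Tpm2 against MHC CRE Only, and Flnc against FKl/l MCK+.

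The same deletion was next set against the hearts that carry only the MHC Cre. Tnnc1, the calcium-binding subunit of cardiac troponin, and nexilin (Nexn), an actin-binding Z-disc protein, rose, and Tpm2, the tropomyosin isoform that is minor in heart, fell. These were 3 of 39 members, beside 1.87% of all genes called. Of the 39 differences 31 were positive, with a median of 0.07, beside 46.3% positive and a median of -0.02 over all genes tested. At an unadjusted p under 0.05 there were 9 members, beside 15.8% of all genes.

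Tnnc1 lies on the plus strand of chromosome 14 (31208312 to 31211729), where Nisch on the opposite strand overlaps it. Its lowest, median and highest levels were 2392, 2664 and 3196 CPM in MHC CRE Only and 2799, 3659.9 and 3900.1 CPM in FKl/l MHC+. The 3 deletion libraries of batch 1, at 3685 CPM or more, exceeded every other library of the study, while those of batch 2 were between 2799 and 3635 CPM. The ranges of the 2 genotypes overlapped over both batches and not within either, and the share of all genes with such gaps was not counted. The log2 fold change was 0.35 (SE 0.0841, edgeR adjusted p = 0.0268), 0.47 within batch 1 (adjusted p = 0.123) and 0.25 within batch 2 (adjusted p = 0.0715). The call was lost without FKl/l MHC+ 1-1, 1-2, 1-3 or 2-3, MHC CRE Only 1-2 or MHC CRE Only 2-3, with adjusted p up to 0.0788. It was also lost when FKl/l 1-1, MHC CRE Only 1-3 and MHC CRE Only 2-3 were dropped together (0.30, adjusted p = 0.109), and kept without MHC CRE Only 1-3 by itself (0.33, adjusted p = 0.0428).

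Nexn lies on the minus strand of chromosome 3 (152236982 to 152266350), overlapped on the same strand by the gene model Gm43185. It ran from 205 to 321 CPM with a median of 233 in MHC CRE Only and from 255 to 480.5 CPM with a median of 357 in FKl/l MHC+. Within each batch the deletion libraries lay above those of MHC CRE Only without overlap, a pattern whose share over all genes was not counted. The log2 fold change was 0.53 (SE 0.127, edgeR adjusted p = 0.0277), 0.66 within batch 1 (adjusted p = 0.152) and 0.44 within batch 2 (adjusted p = 0.0519). In FKl/l the level was 241 to 491 CPM, so that the deletion differed from FKl/l by 0.12 (adjusted p = 0.687) while MHC CRE Only differed from FKl/l by -0.41 (SE 0.127, adjusted p = 0.165). Without MHC CRE Only 1-3 the difference between the deletion and MHC CRE Only was 0.45 (adjusted p = 0.0524), and the call was lost without 6 further libraries, with adjusted p up to 0.0704. These were FKl/l MHC+ 1-2, 1-3, 2-2 and 2-3 and MHC CRE Only 1-1 and 2-1.

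Tpm2 lies on the minus strand of chromosome 4 (43514711 to 43523765), with no annotated gene overlapping it. Its lowest, median and highest levels were 52.0, 70.6 and 80.6 CPM in MHC CRE Only and 37.9, 48.3 and 67.2 CPM in FKl/l MHC+. Within batch 2 the deletion libraries all lay below those of MHC CRE Only and also below those of FKl/l. Within batch 1 they were below MHC CRE Only libraries as well, and the share of all genes with such gaps was not counted. The log2 fold change was -0.45 (SE 0.109, edgeR adjusted p = 0.0277), -0.21 within batch 1 (adjusted p = 0.533) and -0.67 within batch 2 (adjusted p = 0.0161). MHC CRE Only 2-3 was highest at 80.6 CPM, and without it the difference was -0.33 (adjusted p = 0.0522). The call was also lost without FKl/l MHC+ 1-3, 2-2 or 2-3 or MHC CRE Only 2-1, with adjusted p up to 0.0777. Tpm2 is also expressed in smooth muscle, and the summed level of 6 smooth muscle and pericyte markers ran from 552 to 695 CPM in FKl/l MHC+ and from 587 to 1004 CPM in MHC CRE Only, highest in MHC CRE Only 2-3. None of the 6 markers was called, all 6 differences were negative, and all 6 had counts in every library. Their part in the Tpm2 result was not tested.

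**Figure D3:**
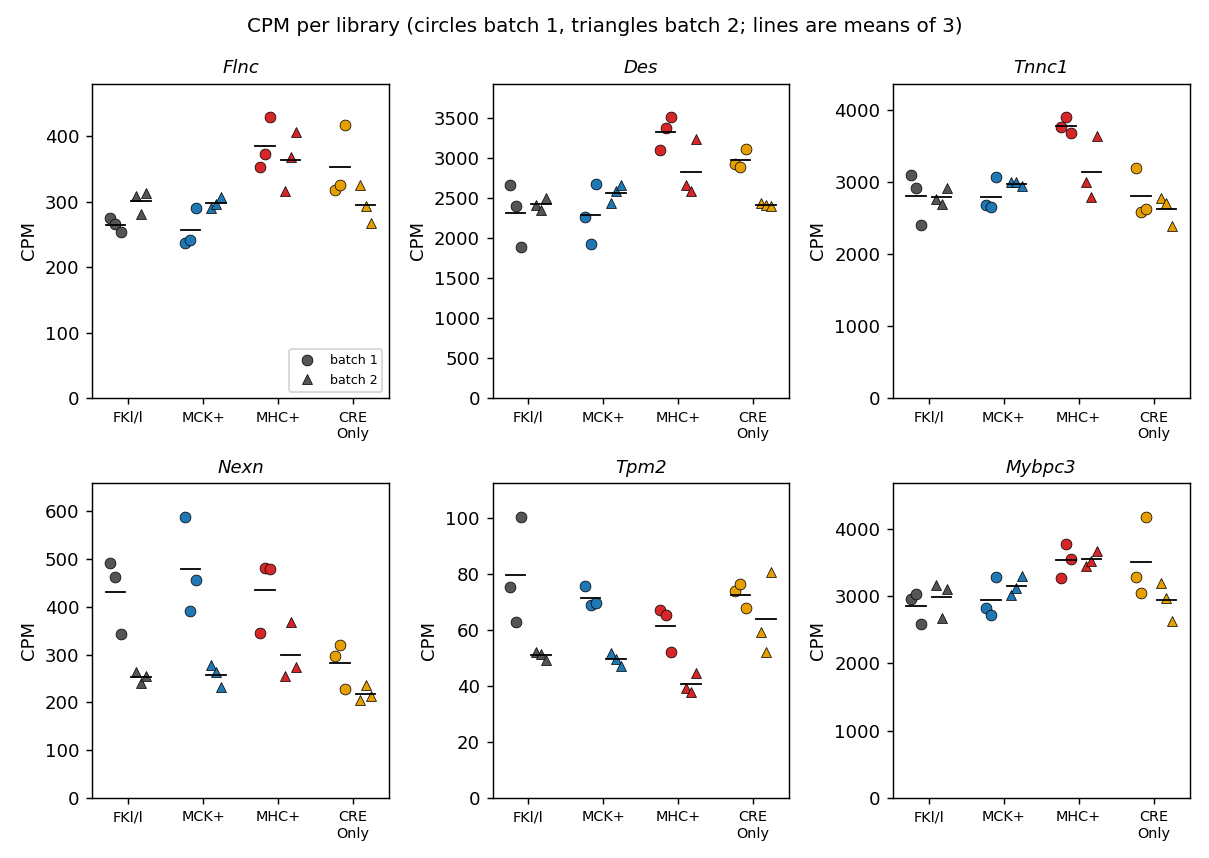
CPM in each of the 24 libraries for the 5 called members and Mybpc3 (circles are batch 1, triangles batch 2, horizontal lines are means of 3 libraries, axes start at 0). Flnc in FKl/l MHC+ runs from 317 to 429 CPM, above all FKl/l and FKl/l MCK+ libraries, and Tpm2 and Nexn are lower in batch 2.

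The 2 deletion lines were then compared with each other. Flnc was the 1 member called, beside 2.15% of all genes. Its lowest, median and highest levels in FKl/l MCK+ were 238, 291 and 307 CPM, all below the lowest FKl/l MHC+ library at 317 CPM. A gap of this kind in this direction was found in 0.518% of all genes tested. The log2 fold change was 0.43 (SE 0.0925, edgeR adjusted p = 0.0106), 0.63 within batch 1 (adjusted p = 0.0269) and 0.29 within batch 2 (adjusted p = 0.0981). Dropping any 1 of the 24 libraries kept this call, with adjusted p up to 0.042. Of 6 endothelial markers 4 fell in FKl/l MHC+ in this comparison, with summed levels of 520 to 664 CPM against 653 to 859 CPM in FKl/l MCK+, and their part in the Flnc result was not tested. Des (0.34, adjusted p = 0.0622) and Synpo2l (0.33, adjusted p = 0.169) did not pass. The median over the 39 genes was 0.06, with 24 positive and 15 negative.

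Against MHC CRE Only, Flnc in the MHC deletion differed by 0.21 (SE 0.0923, adjusted p = 0.268), and MHC CRE Only differed from FKl/l by 0.20 (SE 0.0925, adjusted p = 0.357). MHC CRE Only libraries ran from 268 to 417 CPM and overlapped both groups. The highest of them, 417 CPM, was MHC CRE Only 1-3. Des differed by 0.19 for the deletion against MHC CRE Only (adjusted p = 0.337) and 0.18 for MHC CRE Only against FKl/l (adjusted p = 0.433). Within batches, MHC CRE Only differed from FKl/l for Flnc by 0.41 in batch 1 (adjusted p = 0.0806) and -0.02 in batch 2 (adjusted p = 0.942), and for Des by 0.36 (adjusted p = 0.188) and 0.01 (adjusted p = 0.976). The deletion differed from MHC CRE Only for Flnc by 0.16 in batch 1 (adjusted p = 0.591) and 0.29 in batch 2 (adjusted p = 0.0428). These comparisons share libraries and are given side by side only.

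For deletion with the MCK driver against FKl/l, edgeR called none of the members, beside 0.0499% of all genes called. DESeq2 and limma voom called 0 as well. At an unadjusted p under 0.05 there was 1 member, Obsl1, an obscurin relative of the M-band (0.15, SE 0.0704, edgeR adjusted p = 0.952), beside 5.24% of all genes. The median difference was 0.02 with 24 of 39 positive, beside 51.6% of all genes. All 5 titin and M-band genes had positive differences with a median of 0.13, among them Ttn at 0.17 (SE 0.0893) and Myom1 at 0.13 (SE 0.0783). MHC CRE Only, set against the same FKl/l libraries, had 4 of these 5 positive, also with a median of 0.13. Tcap, which caps titin at the Z-disc, differed by -0.20 (SE 0.123). The widest difference was that of Myoz1 at 0.54 (SE 0.394), which rests on few counts.

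Hearts with the MHC Cre alone had none of the 39 called against FKl/l under edgeR, beside 0.0437% of all genes. DESeq2 called 1, Nexn, limma voom called 0, and 8 members had an unadjusted p under 0.05, beside 12.9% of all genes. The median was -0.05 with 17 positive and 22 negative, beside a median of 0.0038 and 50.9% positive over all genes. The lowest value was that of myotilin (Myot), a Z-disc protein, at -0.72 (SE 0.327, adjusted p = 0.356), and the highest that of Xin actin-binding repeat protein 1 (Xirp1) at 0.33 (SE 0.139, adjusted p = 0.314).

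By role, the thick filament genes gave no call in any of the 5 genotype comparisons, and the log2 differences of Myl2 and Myl3 lay between -0.09 and 0.05. Myh7b, a slow-type myosin heavy chain, had the widest spread of the 4. It ran from 34.0 to 96.9 CPM in FKl/l and from 28.8 to 65.4 CPM in FKl/l MHC+. Its difference was -1.197 within batch 1 (SE 0.204, adjusted p = 0.0233) and 0.38 within batch 2 (SE 0.198, adjusted p = 0.534), so that the pooled value of -0.38 (SE 0.268, adjusted p = 0.53) averages opposite signs. The test of the difference between batches gave 1.62 with an adjusted p of 0.0752. The Trpc4ap gene and the microRNA gene Mir499 overlap Myh7b.

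Among the troponins and tropomyosins, Tnnt2 and Tnni3 were not called. Tnnt2 differed by -0.17 from FKl/l in FKl/l MHC+ (SE 0.0729, adjusted p = 0.268) and by -0.17 in MHC CRE Only (SE 0.073, adjusted p = 0.3). The table also held 3 rows named by Tnnt2 transcripts, which carried 1.87 to 2.43% of its counts, and adding them changed no call. Tpm1 ran from 7645 to 10168 CPM over the study and gave no call. Of the capping and length genes, tropomodulin 1 (Tmod1), which caps the pointed end of thin filaments, had the smallest error of the 39 (SE 0.0536) and differed by 0.07 or less in each genotype comparison. Leiomodin 2 (Lmod2), nebulin and nebulette (Nebl) gave no genotype call over both batches. Within batches Lmod2 took opposite signs. MHC CRE Only differed from FKl/l by 0.39 in batch 1 (adjusted p = 0.377) and by -0.33 in batch 2 (adjusted p = 0.0443), and FKl/l MHC+ differed from MHC CRE Only by -0.26 (adjusted p = 0.655) and 0.52 (adjusted p = 0.00055). The tests of these differences between batches did not pass (adjusted p = 0.0997 and 0.0841). Leiomodin 3 (Lmod3) ran from 53.8 to 81.9 CPM in FKl/l, from 56.9 to 74.9 in FKl/l MCK+ and from 67.5 to 82.5 in FKl/l MHC+. The difference between the deletions was 0.22 (SE 0.0855, adjusted p = 0.196). Lmod3 was called in batch 2 alone (0.34, edgeR adjusted p = 0.0241, beside 171 of all genes) and not in batch 1 (0.14, adjusted p = 0.631). FKl/l MHC+ against MHC CRE Only gave 0.31 in batch 2 (adjusted p = 0.0153, beside 915 of all genes) and 0.07 in batch 1 (adjusted p = 0.864).

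Against FKl/l, the 5 titin and M-band genes all had positive differences in FKl/l MHC+ with a median of 0.18, and none was called. In MHC CRE Only 4 of the 5 were positive against the same FKl/l libraries, with a median of 0.13. Between FKl/l MHC+ and MHC CRE Only 4 were positive and 1 negative, with a median of 0.06. Myom1 ran from 1040.5 to 1162 CPM in FKl/l and from 1095 to 1415 CPM in FKl/l MHC+, a difference of 0.19 (SE 0.0783, adjusted p = 0.223). Obsl1 ran from 115 to 139.7 CPM in FKl/l and from 131 to 175 CPM in MHC CRE Only, a difference of 0.19 (SE 0.0704, adjusted p = 0.25). Of the Z-disc genes outside the calls, Pdlim3, a PDZ and LIM-domain protein, differed by 0.23 between FKl/l MHC+ and MHC CRE Only (SE 0.09, adjusted p = 0.201). In the desmin and Xin group, Xirp2 ran from 231 to 347 CPM in MHC CRE Only and from 264 to 492 CPM in FKl/l MHC+, a difference of 0.44 (SE 0.136, edgeR adjusted p = 0.0907), which DESeq2 called (0.46, adjusted p = 0.0206). The small heat shock protein Cryab differed by 0.21 in the same comparison (SE 0.0831, adjusted p = 0.215). In batch 2 alone Cryab was called (0.26, edgeR adjusted p = 0.0203), beside 915 of all genes. The differences of the LIM proteins Fhl1 and Fhl2 lay between -0.11 and 0.06. The alpha-actinin gene Actn2 lay between -0.17 and 0.16 over the 5 comparisons, which pool the batches. FKl/l MHC+ averaged 2674 CPM beside 2309 in FKl/l in batch 1, and 2509 beside 2951 in batch 2. The edgeR test of this difference between batches did not pass (-0.45, adjusted p = 0.177). Against FKl/l MCK+ it was called lower in batch 2 alone (-0.29, edgeR adjusted p = 0.0325).

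The 250 bases upstream of Flnc, Des and Tnnc1 are printed here because these genes were called higher in the MHC deletion against a control. Under edgeR Flnc and Des were called against FKl/l and not against MHC CRE Only, and Tnnc1 against MHC CRE Only and not against FKl/l. Nexn, for which no window is printed, was likewise called higher against MHC CRE Only and not against FKl/l. DESeq2 called Tnnc1 against both, by 0.36 against MHC CRE Only (adjusted p = 0.00168) and 0.31 against FKl/l (adjusted p = 0.0112). The sequences are RefSeq's, on GRCm38.p6, each on the plus strand, at chr6:29432903-29433152 for Flnc, chr1:75360042-75360291 for Des and chr14:31208062-31208311 for Tnnc1. They end just before the RefSeq start site, and for Flnc the more upstream of 2 start sites was taken. Capitals mark matches to 6 motifs searched on both strands, which are the TATA box (letters TATAAA), the E-box (letters CANNTG), the M-CAT element (letters CATTCC), the GATA motif (letters AGATAA), the MEF2 site and the CArG box. An E-box reads as an E-box on both strands, and overlapping matches were allowed.
Flnc: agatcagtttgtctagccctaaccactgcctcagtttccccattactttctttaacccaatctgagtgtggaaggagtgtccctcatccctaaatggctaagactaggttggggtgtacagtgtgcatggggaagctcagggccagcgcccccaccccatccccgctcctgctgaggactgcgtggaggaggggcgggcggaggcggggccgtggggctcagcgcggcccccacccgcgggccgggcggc
Des: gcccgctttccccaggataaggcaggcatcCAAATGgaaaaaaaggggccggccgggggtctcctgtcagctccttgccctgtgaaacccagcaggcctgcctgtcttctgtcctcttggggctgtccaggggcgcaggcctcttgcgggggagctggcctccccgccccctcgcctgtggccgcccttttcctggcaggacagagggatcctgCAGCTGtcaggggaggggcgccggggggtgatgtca
Tnnc1: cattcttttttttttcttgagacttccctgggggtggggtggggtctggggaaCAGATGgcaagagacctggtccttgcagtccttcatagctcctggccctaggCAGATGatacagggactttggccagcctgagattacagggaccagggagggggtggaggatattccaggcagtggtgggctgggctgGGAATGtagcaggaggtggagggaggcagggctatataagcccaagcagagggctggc

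The Des window held E-boxes at -220 and -36 from the start site. The Tnnc1 window held E-boxes at -197 and -145 and, on the opposite strand, an M-CAT match at -58. The printed Flnc window held no match to the 6 motifs, and the other Flnc window held an M-CAT match. RefSeq windows were matched by symbol for 30 of the 39 genes, with 42 windows in all. Over these 42 windows an E-box was found in 78.6%, M-CAT in 21.4%, GATA in 8 windows, TATAAA in 14.3%, a CArG box in 8 windows and a MEF2 site in 14.3%. Over all 32851 mouse windows of the same length the shares were 66.2, 12.6, 9.99, 12.4, 1.47 and 1.69%. CArG and MEF2 matches fell in windows of 6 and 5 genes, among them Fhl2, Myl3, Ldb3 and Nebl for CArG and Ttn, Mybpc3, Synpo2l and Xirp2 for MEF2. A match is a string of letters and no measure of binding.

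Isoform use was compared within libraries as log2 ratios of counts, which do not depend on library scaling. Slow skeletal troponin I (Tnni1) made up 0.0177 to 0.0203% of the Tnni1 and Tnni3 counts by genotype mean, slow troponin T (Tnnt1) 0.245 to 0.277% of Tnnt1 and Tnnt2, and Fhl1 6.97 to 7.53% of Fhl1 and Fhl2. Tpm2 made up 0.745% of Tpm1 and Tpm2 counts in FKl/l, 0.627% in FKl/l MCK+, 0.560% in FKl/l MHC+ and 0.792% in MHC CRE Only. The Tpm2 to Tpm1 ratio in FKl/l MHC+ differed by -0.50 from MHC CRE Only (exact permutation test within batches, 2-sided p = 0.005, adjusted p = 0.1 over 20 tests) and by -0.38 from FKl/l (exact permutation p = 0.025, adjusted p = 0.25). With 400 arrangements 0.005 is the smallest p this design allows, and a single such value adjusts to 0.1 over 20 tests, so no lone ratio could pass. None of the 20 ratio comparisons passed. Between batches 1 and 2 the first difference was -0.40 and -0.59.

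More members were called between the batches than in any of the 5 genotype comparisons made. Batch 2 against batch 1, in the same fit, called 21 of 39 members (53.8%), beside 38.4% of all genes. Of these, 7 were higher and 14 lower in batch 2, with a median over the 39 of -0.14 beside 0.02 over all genes. Troponin and tropomyosin genes were lower in 5 of 7 and higher in none. These were Tnnt1 (-0.58, SE 0.0625), Tpm2 (-0.49, SE 0.077), Tnnt2 (-0.40, SE 0.0517), Tnni3 (-0.27, SE 0.0543) and Tpm1 (-0.15, SE 0.0507), with edgeR adjusted p from 3.57e-08 to 0.0201. The lowest of all was Nexn (-0.64, SE 0.0898, adjusted p = 3.91e-06). The highest were Xirp1 (0.50, SE 0.0984), Synpo2l (0.38, SE 0.0844) and the PDZ and LIM-domain protein gene Pdlim5 (0.31, SE 0.0683), with adjusted p of 0.000259, 0.00088 and 0.000637. Flnc and Des did not pass between batches (0.02 and -0.08). Mitochondrially encoded genes took between 27.6 and 36.5% of counts in batch 1 and between 25.7 and 29.9% in batch 2, and with these genes left out of the fit 22 members were called between batches. The labels name the batches and say nothing of how they differ.

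**Figure D4:**
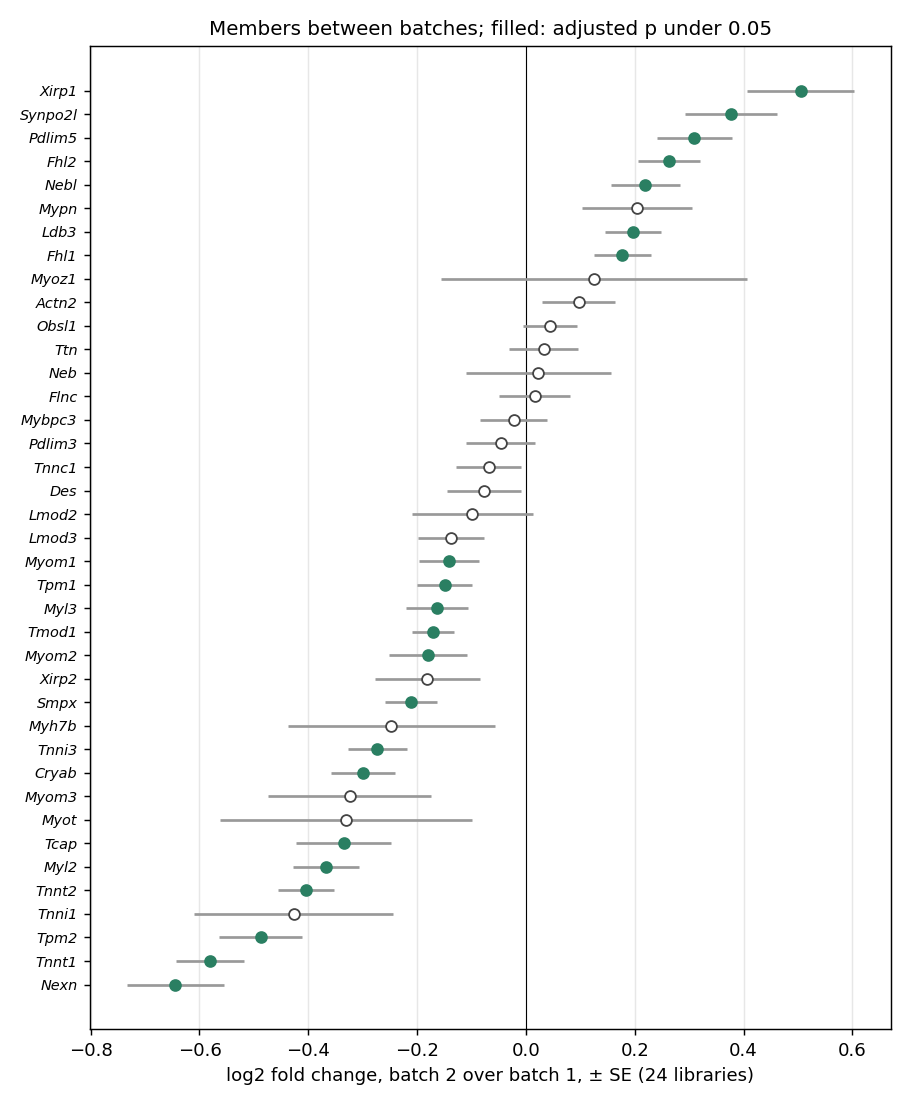
log2 fold change of batch 2 over batch 1 with SE for each of the 39 genes over 24 libraries, sorted. Filled points passed the test (21 genes), from Nexn at -0.64 to Xirp1 at 0.50.

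Genotype differences themselves varied by batch for 5 members. The interaction of genotype with batch called 2 members for FKl/l MHC+ against MHC CRE Only, beside 3.07% of all genes, and 5 for MHC CRE Only against FKl/l, beside 5.57%. It called 0 members for FKl/l MCK+ against FKl/l (0% of all genes), for FKl/l MHC+ against FKl/l (0.00624%) and for FKl/l MHC+ against FKl/l MCK+ (0.0187%). Pdlim5 averaged 209 CPM in FKl/l MHC+ and 237 in MHC CRE Only in batch 1, and 322 and 223 in batch 2. The batch 2 difference exceeded that of batch 1 by 0.71 (edgeR adjusted p = 0.00967), with 0.51 within batch 2 (adjusted p = 0.000728) and -0.15 within batch 1 (adjusted p = 0.567). Dropping any 1 library kept this interaction, with adjusted p up to 0.0478.

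The second in that comparison was nebulette (Nebl), a cardiac Z-disc relative of nebulin, at 0.53 (adjusted p = 0.0367). For MHC CRE Only against FKl/l the batch 2 value was lower than that of batch 1 for myopalladin (Mypn, -0.86, adjusted p = 0.0192), Pdlim5 (-0.55, adjusted p = 0.0219), Ttn (-0.50, adjusted p = 0.0296), Actn2 (-0.52, adjusted p = 0.0321) and Nebl (-0.48, adjusted p = 0.041). Mypn, which binds alpha-actinin and nebulin-type proteins at the Z-disc, averaged 113 CPM in FKl/l and 188 in MHC CRE Only in batch 1, and 171 and 157 in batch 2. The 3 batch 1 libraries of FKl/l MHC+ were also high, between 171 and 174 CPM. Without MHC CRE Only 1-3, whose Fkbp1a goes against its label, the 6 interactions of this paragraph were no longer called, and that of Pdlim5 between FKl/l MHC+ and MHC CRE Only was (0.63, adjusted p = 0.0337). They were then 0.44 for Nebl (adjusted p = 0.118) and, for MHC CRE Only against FKl/l, -0.65 for Mypn (adjusted p = 0.0624), -0.48 for Pdlim5 (0.071), -0.41 for Ttn (0.089), -0.48 for Actn2 (0.0874) and -0.39 for Nebl (0.133). Dropping FKl/l 1-3, FKl/l 2-3 or MHC CRE Only 2-3 also ended those of Mypn, Pdlim5, Ttn and Actn2 between MHC CRE Only and FKl/l, and the 2 of Nebl were lost in 8 and 10 of 24 such fits.

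**Figure D5:**
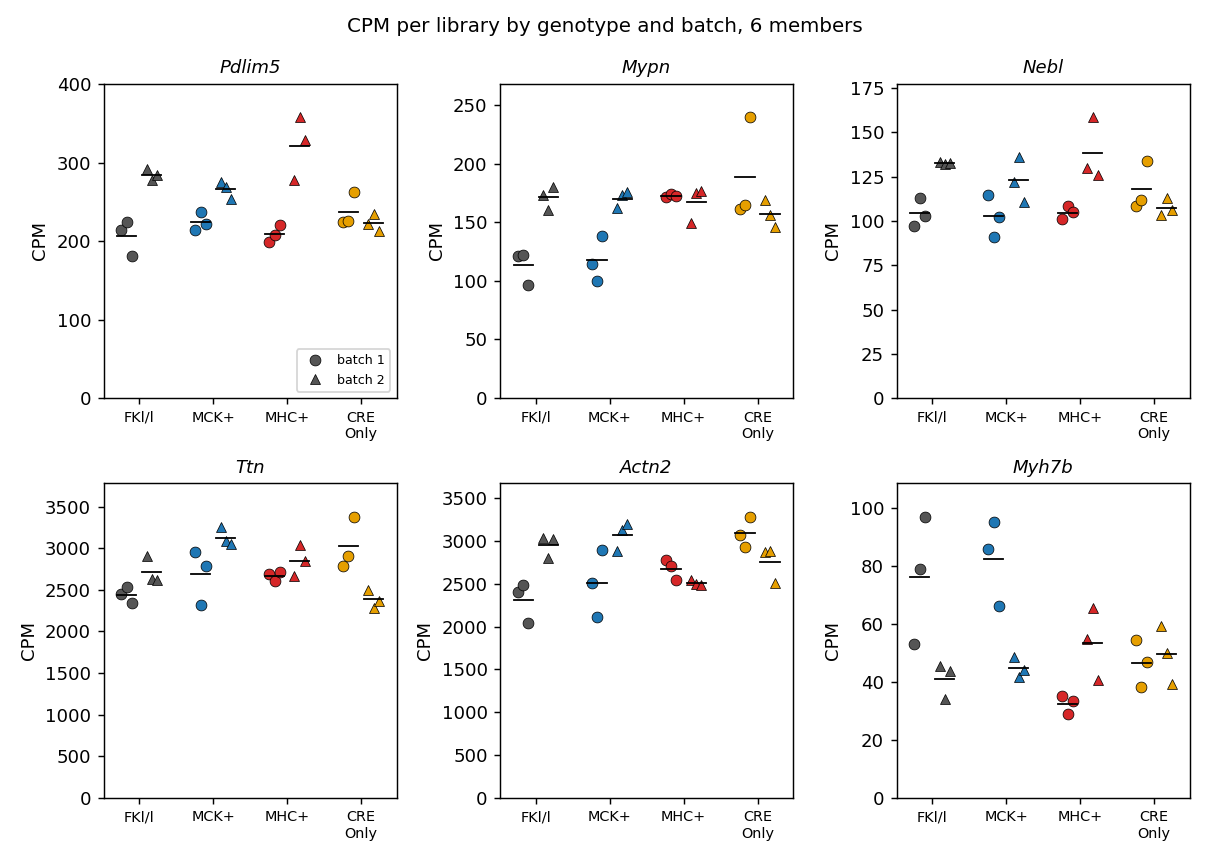
CPM in each library for the 5 members with an interaction of genotype and batch and for Myh7b (circles are batch 1, triangles batch 2, lines are means of 3 libraries, axes start at 0). Pdlim5 in FKl/l MHC+ averages 209 CPM in batch 1 and 322 in batch 2, against 237 and 223 in MHC CRE Only.

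Other genes of the sarcomere and its upkeep were read from a list of 29 (among them the kinases Alpk3, Mylk3 and Speg, the chaperones Unc45b and Hspb7, the methyltransferase Smyd1, the ubiquitin ligases Trim54, Trim55 and Trim63, and the heavy chain Myh6). None of the 29 was called in any of the 5 genotype comparisons, in which 0.0437 to 2.15% of all genes were called. Their median differences against FKl/l were 0.04 in FKl/l MCK+, 0.10 in FKl/l MHC+ and 0.09 in MHC CRE Only. Between batches 9 of 29 were higher and 6 lower in batch 2 (51.7% called, beside 38.4% of all genes). They were led by Smyd1 at 0.69 and the ligase Trim55 at 0.61 upwards, and by Trim54 at -0.57 downwards. Markers of fast skeletal muscle were called higher in FKl/l MHC+ for 3 of 7 tested against FKl/l, beside 1.71% of all genes called. They were 2 of 7 against MHC CRE Only, beside 1.87%, and 1 of 7 against FKl/l MCK+, beside 2.15%. Their 11 genes summed to 44.8 to 63.4 CPM in FKl/l MHC+, 40.6 to 95.1 in FKl/l, 42.1 to 56.3 in MHC CRE Only and 46.0 to 75.0 in FKl/l MCK+, with Myh4 at 0 in FKl/l MHC+ and MHC CRE Only. The 95.1 was FKl/l 1-3, and the other FKl/l libraries reached at most 55.8. Their part in the results was not tested.

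In the authors' deposited tables of the same 5 comparisons all 39 members were listed among 16363 genes, and none had an adjusted p under 0.05, the smallest being 1. Over all genes those tables hold few such values, with 2 for FKl/l MCK+ and 23 for FKl/l MHC+ against FKl/l, 14 for FKl/l MHC+ against FKl/l MCK+, 11 for it against MHC CRE Only, and 1 for MHC CRE Only against FKl/l. Those tables hold a statistic of 0 below a log2 fold change of about 0.263 in size, a fold of 1.2, while the calls above test against no change. With a minimum fold of 1.2, edgeR here also called 0 members for FKl/l MHC+ against FKl/l, MHC CRE Only or FKl/l MCK+. The authors' deposited table gives Flnc a log2 fold change of 0.41 for FKl/l MHC+ against FKl/l (p = 0.059) and of 0.45 against FKl/l MCK+ (p = 0.0243).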

How the data were processed

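Total RNA of whole hearts was sequenced in 24 libraries, with a kit that keeps strand per the labels' protocols. The submitters' processing notes list STAR, RSEM, Trim Galore, FastQC, bcl2fastq 2.17 and the build mm10, with no roles. The annotation used in counting and its strand setting: not given in the sources used here. The authors deposited whole-number counts per gene, not normalized, and 5 comparison tables, which per the file headers hold p-values, log2 fold changes and average log2 levels, and a statistic per gene that is treated as a score. The 3660 rows named by a transcript only were left out.

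CPM were computed on library sizes scaled by the trimmed mean of M values (TMM). Deposited counts were tested with the quasi-likelihood F-test of edgeR 4.0.16 in R 4.3.3 after filterByExpr, with genotype and batch terms over 24 libraries, adjusted by Benjamini-Hochberg over 16018 genes. The error of a log2 fold change is its absolute value over the root of F. Alternatives used DESeq2 1.42.0, limma 3.58.1, other scalings, filters, covariates and sample sets. The code was tested on simulated counts with a fixed spread and no batch effect, so that test does not cover the batch differences found here. Exons and positions are GENCODE M21's. A ratio had 0.5 counts added to each gene. Members and gene lists were chosen with earlier results of these data known. Values are given for called members and, up to 12 genes, those with the smallest p, and other members, such as Myh7b and Mypn, were named after their values were seen.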

Additional observations from a re-analysis of the deposited data

Results flagged for a closer look

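Of 156 member and genotype combinations 10 held a library whose gap to the next library was large for its group's range, at a level that chance passes in about 1 in 20 groups. MHC CRE Only 1-3 was highest of its group for Tcap (792 CPM, others 427 to 546), Ldb3 (653 CPM, others 498 to 552), Mypn (239 CPM, others 145 to 169) and Nebl (134 CPM, others 104 to 113). FKl/l 1-3 was lowest for Lmod2 (241 CPM, others 306 to 337) and highest for Neb (3.69 CPM, others 2.25 to 2.71). FKl/l MCK+ 1-3 was highest for Myl3 (5111 CPM, others 4209 to 4533) and Cryab (1630.3 CPM, others 1335 to 1412). FKl/l MHC+ 2-1 was lowest for Mypn (149 CPM, others 171 to 177), and FKl/l 1-1 was highest for Myoz1 (0.416 CPM, others 0.157 to 0.244).

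Differences between groups in the same contrast passed a test in 8 cases. Between the batches, FKl/l MHC+ against MHC CRE Only differed for Pdlim5 (0.71 on the log2 scale, batch 2 minus batch 1) and Nebl (0.53). MHC CRE Only against FKl/l differed for Mypn (-0.86), Pdlim5 (-0.55), Actn2 (-0.52), Ttn (-0.50) and Nebl (-0.48). Between the deletion lines, Flnc was higher with the MHC driver than with the MCK driver by 0.43.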

How the results depend on the processing

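Counts of called members, by edgeR unless named, changed as follows. For FKl/l MHC+ against FKl/l (2 called) DESeq2 called 5 (Flnc, Des, Synpo2l, Tnnc1 and Mybpc3), the 2 genotypes fitted alone 5, no batch term 1, a minimum fold of 1.2 gave 0, batch 1 alone 3 (Flnc, Mypn and Myh7b), batch 2 alone 0, and leaving out FKl/l 1-1 with MHC CRE Only 1-3 and 2-3 gave 6. For FKl/l MHC+ against MHC CRE Only (3 called) DESeq2 gave 4 (Xirp2 added), no filter on low counts gave 1, no batch term 0, a minimum fold of 1.2 gave 0, batch 1 alone 0 (78 of all genes), batch 2 alone 10 (915 of all genes, from 299), and the 3 libraries left out 1. For MHC CRE Only against FKl/l (0 called) DESeq2 gave 1 and batch 2 alone 2. For FKl/l MHC+ against FKl/l MCK+ (1 called) DESeq2 gave 3, no filter 2, a minimum fold of 1.2 gave 0, batch 1 alone 2, batch 2 alone 3, and the 3 libraries left out 3. Leaving out each library in turn gave 0 to 5, 0 to 4, 0 to 0 and 1 to 3 in these comparisons and 18 to 23 between batches (21 called). The interaction calls (7) became 25 with no filter and 1 to 12 with each library left out. Counts over all genes in these interaction fits are not given here, so the members cannot be set beside other genes. These interaction alternatives, and adding the Tnnt2 transcript rows, were chosen after seeing the data. The cause of these changes was not tested. No called difference changed sign, and FKl/l MCK+ against FKl/l kept 0 calls in the alternatives run. Genes called over the whole table also moved, for FKl/l MHC+ against FKl/l from 274 to 553 with DESeq2, 120 with no batch term and 42 at a fold of 1.2, and for MHC CRE Only against FKl/l from 7 to 207 with DESeq2. In batch 1 alone and batch 2 alone they were 214 and 160 for FKl/l MHC+ against FKl/l. They were 17 and 79 for MHC CRE Only against FKl/l, and 211 and 171 for FKl/l MHC+ against FKl/l MCK+. Where no count over all genes is printed, a change in member calls is not set against that of all genes. With the replicate block, the label's batch and number in place of batch, FKl/l MHC+ against FKl/l had 1 call, Flnc. Same-numbered libraries shared only a number: over 36 pairs their deviations correlated between -0.24 and 0.16, of which 3 were over 0.1, and 4 of 24 libraries correlated best with their own number. Depth limits Myoz1 most, with 4 to 18 counts per library.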
